A study of Homo sapiens with 12 samples.

Results

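ATF4 is the transcription factor through which the integrated stress response changes gene expression. Stress-sensing kinases phosphorylate the initiation factor eIF2, general translation falls, and the ATF4 transcript is translated more, so the amount of ATF4 mRNA is only part of its control. ATF4 then drives genes of amino acid supply, among them the enzymes that make serine and feed its carbon into mitochondrial folate metabolism, and genes of the stress response itself, such as DDIT3. The 10 genes described here include ATF4, the stress regulators DDIT3, TRIB3 and PPP1R15A, and CHAC1, a target of ATF4. The others are asparagine synthetase (ASNS), the serine synthesis enzymes PHGDH and PSAT1, and the mitochondrial folate enzymes SHMT2 and MTHFD2. The 10 genes were chosen by name as a known pathway. All of them were found among the 56537 gene names of the table and passed the filter on low values, which 16680 gene names passed.

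HCT116, an established human colorectal cancer cell line, was held at 21% oxygen (0 h) or placed in 1% O2 for 1, 2 or 24 h. Each of the 4 time points had 3 libraries of poly(A) RNA, described as biological replicates, which makes 12 in total, and no genetic change or drug distinguished the groups. Hypoxia was begun a day after plating. The sources used here give no plating-to-collection time for each group, so at 24 h the effects of low oxygen and of a longer culture cannot be told apart. All groups come from 1 cell line, and poly(A) RNA measures neither ATF4 protein nor eIF2 phosphorylation.

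The level of a gene is the sum of the deposited FPKM (fragments per kilobase of transcript, scaled to the mapped fragments of the library) of its annotated transcripts and their assembled variants, a quantity per length. Read counts and sequencing depth were not used here, and the spread of the 3 libraries is the measure of precision. Changes are differences of log2(FPKM + 0.5), a scale that understates the change of low genes. They were tested with limma over all 12 libraries with Benjamini-Hochberg adjustment over the 16680 genes, and a gene was called at an absolute log2 fold change above 1 with an adjusted p under 0.01. All 6 epithelial markers were present in these libraries, with summed FPKM of 2034 to 2888, and CDH1 and CLDN4 among them were called higher at 24 h, while leukocyte and endothelial markers summed to at most 0.105 and PECAM1 was at 0 throughout. Of 5 fibroblast markers only COL1A1 passed 0.5 FPKM and LUM was at 0 in every library; their sum was 1.82 to 2.16 FPKM at 0 h and 5.77 to 8.83 FPKM at 24 h. The part of COL1A1 in the values below was not tested. All 6 hypoxia genes used as a check were called higher at 24 h, with log2 fold changes from 1.90 for VEGFA to 5.34 for NDRG1.

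Sequence upstream of the genes was searched for the composite element of ATF4 and its C/EBP partners, spelled TGATGNAA, on both strands. Within 500 bases before the canonical start, 3 of the 10 genes held it, against 4.74% of 19819 protein-coding genes. The 3 matches are shown because they are the DNA letters that ATF4 and DDIT3 are known to read. They are given 5′ to 3′ on the strand of the gene with the element in capitals, which in DDIT3 and CHAC1 lies on the opposite strand.
ASNS: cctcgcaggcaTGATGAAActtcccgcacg
DDIT3: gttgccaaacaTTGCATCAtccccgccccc
CHAC1: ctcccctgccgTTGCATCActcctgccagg
The ASNS element began 68 bases before the start (GRCh37 chr7:97501770-97501799, minus strand), in a UTR exon of other ASNS transcripts. That of DDIT3 began 306 bases before it (chr12:57914585-57914614, minus strand), inside a longer DDIT3 transcript but in none of its exons. In CHAC1 it began 209 bases before the start (chr15:41245449-41245478, plus strand), in a UTR exon of another CHAC1 transcript. None of these 3 genes was called at any time point in the fit described above, while ASNS and CHAC1 were called lower at 24 h under alternatives given below. The core of the hypoxia response element was found as ACGTG upstream of ATF4, CHAC1 and MTHFD2, against 34.2% of all genes, and as GCGTG upstream of 7 members, against 56.8%; none of the 3 motifs was found in the window of PSAT1, PHGDH or SHMT2.

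At 24 h the serine synthesis enzyme PSAT1 was the 1 member called, with a mean at 0.282 times that of 0 h, and no member was called higher. On the adjusted p alone, 3 members were lower at 24 h (PSAT1, TRIB3 and MTHFD2), and ATF4 mRNA itself did not pass. Among all genes, 9.51% were called lower and 8.76% higher at 24 h, and 23.2% and 18.3% passed on the adjusted p alone, so the shares of the members, 1 of 10 and 3 of 10, were near those of all genes. The median log2 fold change of the members was -0.40, against -0.05 over all genes, and 8 of 10 had a negative value.

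**Figure D1:**
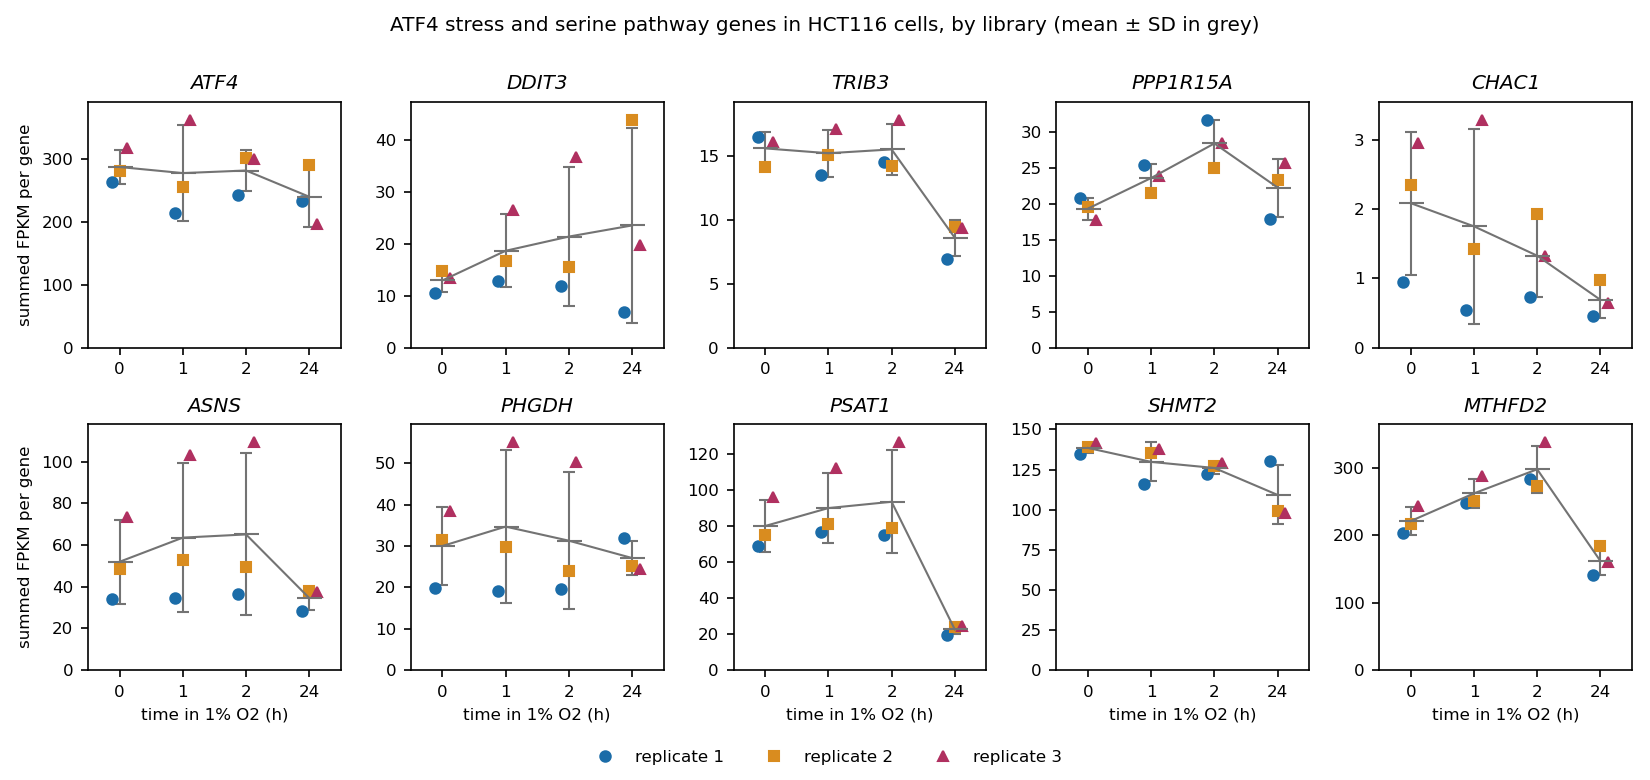
Summed FPKM per gene (y axis, linear, from 0) at 0, 1, 2 and 24 h in 1% O2 (x axis, not to scale) for the 10 genes; symbols are the 3 libraries of a time point and grey bars the mean ± SD. PSAT1 lies between 19.3 and 24.3 FPKM in all 3 libraries at 24 h, below every other library, while DDIT3 spreads from 6.90 to 43.9 FPKM at 24 h.

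ATF4 (chromosome 22, 39915700 to 39918688, plus strand, GRCh37) was the most abundant member at 0 h, followed per length by MTHFD2, SHMT2, PSAT1, ASNS, PHGDH, PPP1R15A, TRIB3, DDIT3 and CHAC1. In that order the 0 h libraries of PSAT1 and ASNS, ASNS and PHGDH, PHGDH and PPP1R15A, and TRIB3 and DDIT3 overlapped. The level of ATF4 was 264, 282 and 318 FPKM at 0 h in replicates 1 to 3, and 234, 291 and 196 FPKM at 24 h. The ranges overlap, with means of 288 ± 27.3 FPKM at 0 h and 240 ± 47.7 FPKM at 24 h (SD, n = 3). The log2 fold change was -0.27 ± 0.19 (SE; limma adjusted p = 0.234), with a 95% interval of -0.68 to 0.13. At 1 h the level was 215, 256 and 363 FPKM and at 2 h 244, 302 and 301 FPKM, with log2 fold changes of -0.08 and -0.03. At each time point 97.7% to 98.9% of its FPKM lay on 1 transcript, ENST00000396680. A second, minor ATF4 transcript, ENST00000337304, went the other way, from 3.15, 2.87 and 3.57 FPKM at 0 h to 5.69, 5.25 and 4.45 FPKM at 24 h. Its groups do not overlap, and it rose by a log2 fold change of 0.61 ± 0.17 (SE; limma adjusted p = 0.0190 over all 62162 transcripts tested).

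DDIT3, also called CHOP, is a bZIP factor that dimerises with C/EBP proteins and is induced in prolonged stress (chromosome 12, 57910371 to 57915520, minus strand). It was the least reproducible member at 24 h. Its level was 10.6, 14.8 and 13.5 FPKM at 0 h, 12.9, 16.6 and 26.5 at 1 h, 11.9, 15.6 and 36.7 at 2 h, and 6.90, 43.9 and 19.8 at 24 h. The lowest and highest library of all 12 are thus both at 24 h, with a 6.37-fold range among the 3 of them, against 1.40-fold at 0 h. The log2 fold change at 24 h was 0.50 ± 0.55 (SE; limma adjusted p = 0.464), with a 95% interval of -0.69 to 1.69. Without 24 h replicate 2 it was -0.12, and without 24 h replicate 1 it was 1.17, so the direction rests on single libraries. The main transcript, ENST00000346473, held 51.3% of the gene's mean FPKM at 0 h and 71.3% at 24 h, and its level of 2.33, 34.2 and 13.9 FPKM at 24 h spread as the gene did.

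TRIB3 is a pseudokinase that ATF4 induces and that in turn restrains ATF4 (chromosome 20, 343479 to 378203, plus strand). It was 16.5, 14.2 and 16.1 FPKM at 0 h and 6.98, 9.42 and 9.41 FPKM at 24 h. No 24 h library reached any library of the earlier time points, which lay between 13.5 and 17.9 FPKM. The log2 fold change was -0.83 ± 0.14 (SE; limma adjusted p = 0.000382), which passes on the adjusted p but is less than 2-fold. At 1 h and 2 h the means were 15.2 ± 1.83 and 15.5 ± 2.02 FPKM (SD, n = 3), against 15.6 ± 1.26 FPKM at 0 h.

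PPP1R15A, or GADD34, directs protein phosphatase 1 to eIF2 and so reverses the stress signal (chromosome 19, 49375469 to 49379316, plus strand). Its level was 20.8, 19.5 and 17.7 FPKM at 0 h, 25.4, 21.5 and 23.9 at 1 h, 31.6, 25.1 and 28.5 at 2 h, and 17.8, 23.3 and 25.7 at 24 h. The libraries at 1 h and at 2 h all lay above those at 0 h, and those at 24 h overlapped with both. The log2 fold change at 2 h was 0.54 ± 0.14 (SE; limma adjusted p = 0.123), with an unadjusted p of 0.00210.

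CHAC1 degrades glutathione and is a target of ATF4 (chromosome 15, 41245160 to 41248710, plus strand). It was the least abundant member, with 0.951, 2.34 and 2.96 FPKM at 0 h and 0.460, 0.972 and 0.637 FPKM at 24 h. One library at 0 h lies within the range of those at 24 h. The log2 fold change of -1.05 ± 0.44 (SE; limma adjusted p = 0.0613) did not pass the test, although CHAC1 was called on the TPM scale explained below (log2 fold change -1.15, adjusted p = 0.000373) and with the replicate number as a block in limma (adjusted p = 0.00966). ASNS, which makes asparagine (chromosome 7, 97480989 to 97501854, minus strand), was 33.9, 48.5 and 73.6 FPKM at 0 h and 28.2, 37.9 and 37.6 FPKM at 24 h, ranges that overlap. Its log2 fold change at 24 h was -0.52 ± 0.43 (SE; limma adjusted p = 0.323), and the interval from -1.46 to 0.41 includes both a 2-fold decrease and no change.

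Serine synthesis from a glycolytic intermediate begins with PHGDH and continues with PSAT1, and these neighbours in the pathway had different values at 24 h. PSAT1 (chromosome 9, 80912041 to 80945009, plus strand) was 68.8, 74.8 and 95.9 FPKM at 0 h, 76.4, 81.1 and 112 at 1 h, 75.0, 78.6 and 126 at 2 h, and 19.3, 23.9 and 24.3 at 24 h. Every 24 h library was below every earlier one by more than 2-fold. It fell by 1.80 ± 0.21 on the log2 scale (SE; limma adjusted p = 1.94e-05; 95% interval -2.25 to -1.35). Both of its tested transcripts were lower, ENST00000376588 with a log2 fold change of -1.91 and ENST00000347159 with -1.43 (limma adjusted p = 0.000129 and 0.00514). PHGDH (chromosome 1, 120191034 to 120286841, plus strand) was 19.95, 31.5 and 38.5 FPKM at 0 h and 31.9, 25.0 and 24.3 FPKM at 24 h. The 24 h libraries lie inside the range of the 0 h libraries, and the log2 fold change was -0.10 ± 0.39 (SE; limma adjusted p = 0.839), with a 95% interval of -0.95 to 0.74. The difference between the changes of PSAT1 and PHGDH was not tested.

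SHMT2 passes the carbon of serine to folate in mitochondria, and MTHFD2 oxidises the folate product there. SHMT2 (chromosome 12, 57623356 to 57628718, plus strand) was 135, 139 and 141 FPKM at 0 h and 130, 99.1 and 98.2 FPKM at 24 h. The groups do not overlap, but 1 library of 24 h is close to those of 0 h, and the log2 fold change of -0.35 ± 0.11 (SE; limma adjusted p = 0.0184) did not pass. MTHFD2 (chromosome 2, 74413299 to 74444692, plus strand) was 203, 217 and 244 FPKM at 0 h, 248, 251 and 288 at 1 h, 283, 273 and 338 at 2 h, and 142, 184 and 161 at 24 h. Its libraries at 1 h and at 2 h lay above all those at 0 h and its libraries at 24 h below them. At 2 h the log2 fold change was 0.43 ± 0.12 (SE; limma adjusted p = 0.153) with an unadjusted p of 0.00426, and at 24 h it was -0.45 ± 0.12 (SE; limma adjusted p = 0.00728). The 24 h value no longer passed 0.01 when any 1 library of 0 h, or replicate 1 or 3 of 24 h, was left out, with adjusted p up to 0.0350.

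**Figure D2:**
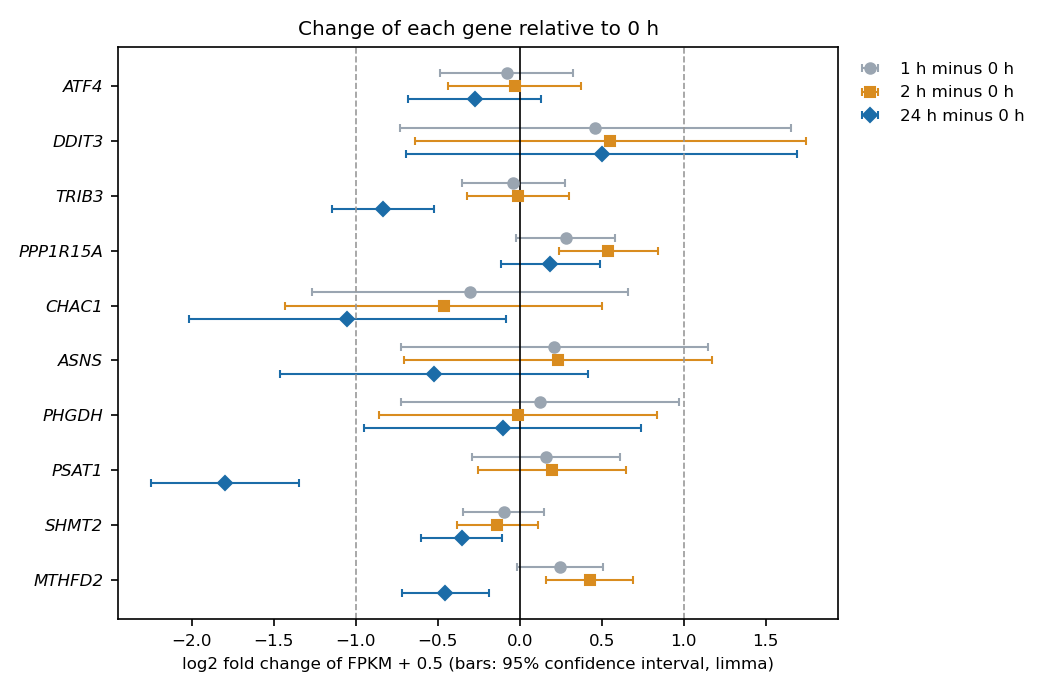
Log2 fold change of FPKM + 0.5 relative to 0 h (x axis) of each gene (y axis) at 1, 2 and 24 h; bars are the 95% confidence intervals of limma and dashed lines mark a 2-fold change. At 24 h only the interval of PSAT1, -2.25 to -1.35, lies wholly beyond 2-fold.

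At 1 h and 2 h no member was called, and none passed an adjusted p of 0.01 in the limma fit of all 12 libraries, in either direction. The background was as low. At 1 h 1 of all tested genes passed (0.006%), the small nuclear RNA gene RNVU1-16, and at 2 h 4 passed (0.024%), ERRFI1, MAFF, NAB2 and PIM1, which are named after their values were seen. Under TPM 28 genes were called at 1 h and 540 at 2 h, most of them lower. In the main fit, and with the median-of-ratios scaling explained below, 1 and 3 were called. RNVU1-16 was not called when transcripts under 300 bases were left out, a filter that can remove a small RNA itself and so does not test it. A fit of the libraries of 0, 1 and 2 h alone, with the replicate number as a block, was added after the data were seen because same-numbered libraries of 0 h and 2 h deviated together. In it 1 member, MTHFD2, passed at 2 h (limma adjusted p = 0.00780), as 0.779% of all tested genes did, PPP1R15A had an adjusted p of 0.0109, and neither reached 2-fold. With the block over all 12 libraries the adjusted p of MTHFD2 was 0.0572, and in the libraries of 0, 1 and 2 h without the block it was 0.0847 (limma). At 1 h no member and no other gene passed in that fit. At an unadjusted p under 0.05 in the fit of all libraries there were 0 of 10 members at 1 h and 2 of 10 at 2 h (PPP1R15A and MTHFD2). Of all 16680 tested genes, 769 and 2547 were at that threshold. These were also the members whose libraries at 2 h all lay above those at 0 h, as 12.2% of all tested genes did, while SHMT2 lay wholly below, as 13.1% did. At 24 h 4 members lay wholly below 0 h (TRIB3, PSAT1, SHMT2 and MTHFD2), against 32.8% of tested genes.

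Set directly against 2 h, the 24 h libraries were lower in the same 3 genes. PSAT1 was called, with a log2 fold change of -1.99 ± 0.21 (SE; limma adjusted p = 1.15e-05). MTHFD2, at -0.88 ± 0.12 (SE; limma adjusted p = 8.94e-05), and TRIB3, at -0.82 ± 0.14 (SE; limma adjusted p = 0.000495), passed on the adjusted p without reaching 2-fold. Under TPM, MTHFD2 (-0.66, limma adjusted p = 0.462) and TRIB3 (-0.55, limma adjusted p = 0.472) did not pass, while PSAT1 did (-1.72, limma adjusted p = 0.00507). For PPP1R15A the value in the main fit was -0.35 ± 0.14 (SE; limma adjusted p = 0.05004). All 10 members had a negative value, with a median of -0.47 against -0.03 over all genes. Those of DDIT3 (-0.05) and PHGDH (-0.09) turned positive when single libraries were left out, up to 0.62 and 0.30, and those of DDIT3, PHGDH and SHMT2 did so under TPM. Of all genes, 7.28% were called lower and 7.44% higher between 2 h and 24 h, and 20.3% and 16.3% passed on the adjusted p alone.

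The spread within a time point was itself unlike from gene to gene, a pattern noticed after the values were seen and not tested. ASNS, PHGDH, PSAT1 and SHMT2 were lowest in replicate 1 and highest in replicate 3 at each of 0, 1 and 2 h, which held for 6.71% of all tested genes. Among these 4 genes the range at these times was widest for ASNS, whose highest library was 2.17 times the lowest at 0 h, 3.00 times at 1 h and 3.01 times at 2 h, with 34.4, 53.1 and 103 FPKM at 1 h and 36.4, 49.6 and 109 FPKM at 2 h. PHGDH behaved likewise at 1 h, with 19.2, 29.8 and 55.0 FPKM, and at 2 h, with 19.5, 24.1 and 50.2 FPKM. At 24 h the ranges were 1.34-fold for ASNS and 1.31-fold for PHGDH, and PHGDH was highest in replicate 1. SHMT2 followed the order with a range of only 1.05-fold at 0 h, and TRIB3 did not follow it. Over all genes, 8 of 9 same-numbered pairs of libraries among 0, 1 and 2 h had correlated deviations from their group means (over 0.1), and 2 of 9 pairs with 24 h did. Whether same-numbered libraries share a culture or a day is not given in the sources used here.

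**Figure D3:**
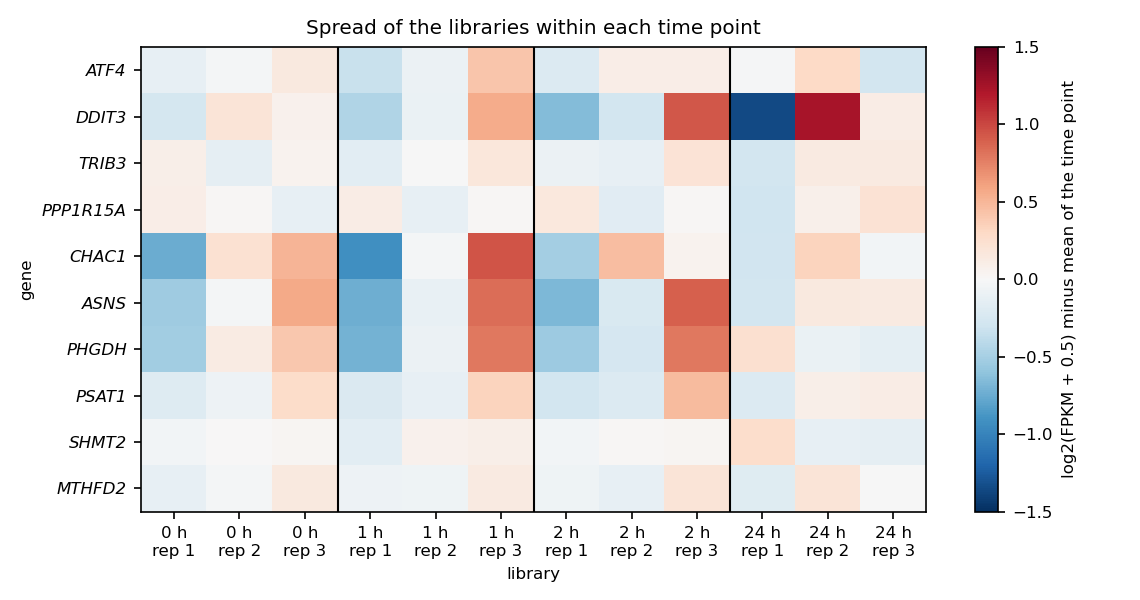
Deviation of each library (x axis, grouped by time point) from the mean of its time point, in log2(FPKM + 0.5) (colour; red above, blue below), for the 10 genes (y axis). ASNS and PHGDH are below the mean in replicate 1 and above it in replicate 3 at 0, 1 and 2 h, PHGDH has the opposite order at 24 h, and the strongest deviations are those of DDIT3 at 24 h.

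At the level of transcripts, the members had 107 models in the table, of which 90 were annotated and 17 were assembled variants, and 50 passed the filter. At 24 h 9 of the 50 were lower and 2 higher at a limma adjusted p under 0.05, while 15.3% of all tested transcripts were lower and 11.3% higher. The lower ones were 3 of SHMT2, 3 of MTHFD2, 2 of PSAT1 and 1 of TRIB3. The 2 higher ones were the ATF4 transcript given above and an assembled variant of DDIT3 near ENST00000551116, with 0.315, 0.562 and 0.398 FPKM at 0 h and 0.948, 2.09 and 1.33 FPKM at 24 h. In SHMT2 the transcripts differed among themselves. The most abundant, ENST00000557487, was 35.3, 36.2 and 41.3 FPKM at 0 h and 41.0, 34.1 and 34.9 FPKM at 24 h (log2 fold change -0.04, limma adjusted p = 0.837). ENST00000414700 went from 19.8, 18.7 and 30.7 FPKM to 10.5, 11.3 and 12.6 FPKM (log2 fold change -0.94, limma adjusted p = 0.00982), and no library of 24 h reached one of 0 h. Transcripts annotated as noncoding held 38.2% ± 7.96 of the SHMT2 FPKM at 0 h and 31.2% ± 5.93 of it at 24 h (SD, n = 3; two-sided exact permutation p = 0.3, where 0.1 is the smallest that 3 against 3 can give). Estimates on overlapping models are uncertain. SHMT2, DDIT3 and ASNS share their assembled loci with NXPH4, MIR616 and AC079781.8, and ATF4, PSAT1, MTHFD2 and ASNS have annotated pseudogenes that could take some of their reads.

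The genes around the members were described with 5 further lists, in none of which any gene was called at 1 h or 2 h. Of 25 listed enzymes of serine, glycine and folate metabolism besides the members, 22 were tested. Of these 6 were called lower and 1 higher at 24 h. These are 27.3% and 4.55% of the list, against 9.51% and 8.76% of all genes, and the median log2 fold change was -0.60, against the -0.05 of all genes. On the adjusted p alone 13 of the 22 were lower and 1 higher, where 23.2% and 18.3% of all genes were. Those called lower include the serine dehydratase-like enzyme SDSL (-1.69), the cytosolic folate enzyme MTHFD1 (-1.28) and GCSH of the glycine cleavage system (-1.20). MTHFD1 went from 113 ± 1.65 to 46.6 ± 5.24 FPKM (SD, n = 3). AMT, another protein of glycine cleavage, rose by 1.60. PSPH, which completes serine synthesis after PSAT1, went from 32.0 ± 2.86 to 19.0 ± 2.66 FPKM (SD, n = 3), a log2 difference of -0.74 (limma adjusted p = 0.00144), short of 2-fold.

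Among 10 amino acid transporters that ATF4 is known to drive, 5 were lower and 1 higher at 24 h on the adjusted p alone. At that threshold 23.2% of all genes were lower and 18.3% higher. SLC3A2 and SLC7A5, which together form a transporter of large neutral amino acids, fell by 1.504 and 1.38 on the log2 scale, from 176 ± 9.46 to 61.8 ± 4.50 FPKM and from 162 ± 5.198 to 62.3 ± 6.97 FPKM (SD, n = 3). SLC38A2, a carrier of small neutral amino acids, rose by 1.60, from 160 ± 27.0 to 481 ± 23.3 FPKM. These 3 were the ones called of 10 tested, so that 2 of 10 were lower and 1 of 10 higher, against 9.51% and 8.76% of all genes, and the median of the list was -0.67 against -0.05.

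Of 29 other known targets of ATF4 or DDIT3, 26 were tested, of which 5 were called higher and 3 lower, with a median of 0.09. The shares were 19.2% higher and 11.5% lower, against 8.76% and 9.51% of all genes, so the share that was lower was near that of all genes. On the adjusted p alone 8 were higher and 3 lower, where 18.3% and 23.2% of all genes were. Those called higher include DDIT4 (5.68), GDF15 (3.38), STC2 (2.24) and ERO1L (1.75). DDIT4, an inhibitor of mTORC1 that hypoxia is also known to induce, went from 15.6 ± 4.57 FPKM at 0 h to 805 ± 56.5 FPKM at 24 h, and GDF15, a stress-induced cytokine, from 28.5 ± 6.73 to 299 ± 45.7 FPKM (SD, n = 3). The 3 that fell were the tRNA synthetases WARS (-1.90), MARS (-1.36) and NARS (-1.10). WARS went from 79.6 ± 2.01 to 21.1 ± 2.81 FPKM.

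Of 18 genes for the eIF2 kinases and the eIF2 cycle, 3 (16.7%, against 9.51% of all genes) were called lower in the limma fit and 0 (against 8.76%) higher, with a median of -0.22. On the adjusted p alone 7 were lower and 1 was higher, where 23.2% and 18.3% of all genes were. The higher one was EIF2AK3, the eIF2 kinase PERK of the endoplasmic reticulum, which went from 4.97 ± 0.184 to 10.2 ± 0.765 FPKM (SD, n = 3), a log2 fold change of 0.96 (limma adjusted p = 1.85e-05) that is under 2-fold on the scale of log2(FPKM + 0.5), although the ratio of the means is not. The 3 called lower were EIF2B1 (-1.59) and EIF2B3 (-1.10), subunits of the exchange factor that reloads eIF2, and EIF2S1 (-1.26), the eIF2 subunit that the stress kinases phosphorylate. EIF2S1 went from 372 ± 35.3 to 154 ± 6.60 FPKM (SD, n = 3). Of 13 partners and co-regulators of ATF4, 12 were tested, of which TFE3 (1.28) and FOXO3 (1.18) rose and ATF5 (-1.59) fell, with a median of -0.08. These are 16.7% higher and 8.33% lower, against 8.76% and 9.51% of all genes. On the adjusted p alone 4 were higher, among them ATF3 (0.87) and CEBPB (0.74), and 3 were lower, among them CEBPG (-0.59) and ATF6 (-0.35). At that threshold 18.3% of all genes were higher and 23.2% lower, so the share of the list that was lower was near that of all genes. ATF5, the closest relative of ATF4, went from 19.0 ± 1.29 to 5.95 ± 0.357 FPKM (SD, n = 3).

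**Figure D4:**
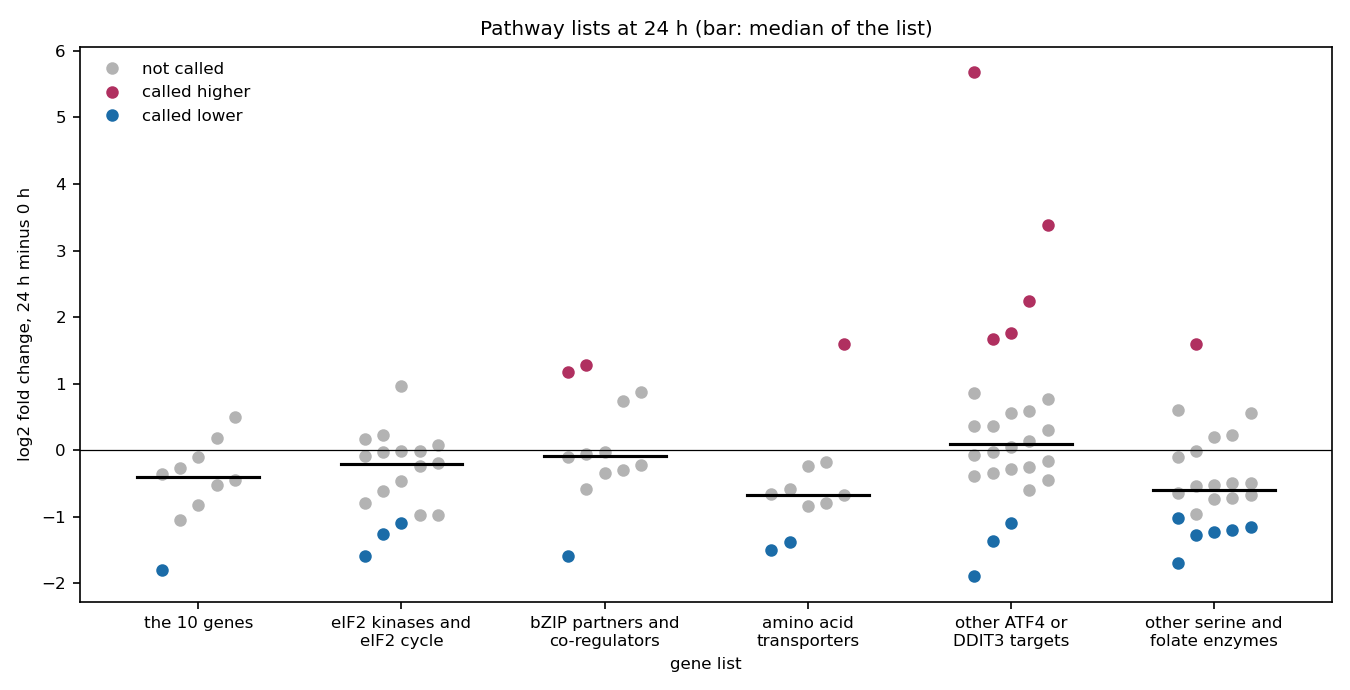
Log2 fold change at 24 h relative to 0 h (y axis) of each tested gene in the 10 members and 5 further lists (x axis); points are genes, coloured where called, and black bars are the median of a list. The members hold 1 called gene, PSAT1 at -1.80, and the most strongly raised point among the other targets is DDIT4 at 5.68.

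The patterns most like that of PSAT1 were sought over the 9 hypoxic libraries, as the mean absolute difference of log2(FPKM + 0.5) from the 0 h mean. The 3 nearest genes were SLC25A13 with a difference of 0.18, POLA1 with 0.20 and DHX9 with 0.21. Their log2 fold changes at 24 h were -1.70, -1.46 and -1.67. DHX9 went from a mean of 129 FPKM at 0 h to 40.4 FPKM at 24 h.

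Scaling each library to its sum over all transcripts bears on these directions. Transcripts under 300 bases, of which the members have none, made up 57.0% to 87.7% of all FPKM in a library, and the total over all transcripts ranged from 1535000 to 5258000. Forcing each library to the same sum (TPM) moved the median log2 fold change of all genes at 24 h to -0.78 and the calls among them from 1462 higher and 1586 lower to 209 higher and 3995 lower. On that scale 4 members were called lower at 24 h (ASNS, CHAC1, PSAT1 and TRIB3), and DDIT3 and PPP1R15A had negative values of -0.32 and -0.64. At 2 h the TPM values of PPP1R15A and MTHFD2 were negative too, at -0.51 and -0.66, but above the median of -0.94 over all genes. Relative to the median of all genes, the TPM value of PSAT1 at 24 h was still the lowest of the 10. With the sum taken over transcripts of at least 300 bases alone, the median of all genes at 24 h was -0.13. With each library divided by its median ratio to the gene means (median-of-ratios scaling) it was 0.005, against -0.05 in the main fit. The calls were 1405 higher and 2051 lower on the former scale, and 1645 higher and 1379 lower on the latter.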

How the data were processed

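HCT116 cells at 0, 1, 2 and 24 h of 1% O2 were compared, with 3 libraries each, grouped by their labels. The authors aligned strand-specific paired reads to hg19 with MapSplice, assembled and merged transcripts with Cufflinks and Ensembl, and deposited FPKM per transcript and library. The submitters' processing notes also name CASAVA 1.8.2. The deposited table had no column of an unmapped sample (0 such columns), and read depth was not used here.

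FPKM of transcripts with class code = or j was summed per gene name, and genes above 0.5 FPKM in at least 3 libraries were tested with limma 3.58.1 in R 4.3.3 (lmFit, eBayes with trend, pseudocount 0.5, 4 groups, two-sided). Thresholds of 2-fold and 1% FDR follow the study's methods. Tables and figures used Python 3.11.15, numpy 2.4.6, pandas 2.3.3 and matplotlib 3.10.9, and GRCh37 sequence was read with pysam 0.24.0 at GENCODE release 44 starts. The fit was tested on simulated data. Replicate numbers come from the labels, which do not call the libraries paired. Correlations of same-numbered libraries over genes were all above 0.1 between 0 h and 2 h (0.13 to 0.36) but not between 0 h and 1 h or 0 h and 24 h, so a block was used beside the 2 h result. The members and lists were chosen with earlier results of these data known. All members were described; of each other list up to 4 called genes per direction at 24 h were named by size of change (1 gene that the rule names is not reported here), PSPH, EIF2AK3, ATF3, CEBPB, CEBPG, ATF6 and the minor transcripts of ATF4, PSAT1 and DDIT3 having been added after their values were seen. Alternatives covered pseudocount, filters, transcript classes, scaling, variance model, a replicate block and each library left out.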

Additional observations from a re-analysis of the deposited data

Results flagged for a closer look

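For 3 of the 10 genes the change at 24 h differed from the change at 2 h by the limma test of the 24 h libraries directly against those of 2 h, with an adjusted p under 0.01 over all genes. The difference on the log2 scale was -1.99 for PSAT1 (3 of 3 libraries lower, adjusted p = 1.15e-05), -0.88 for MTHFD2 (3 of 3 lower, adjusted p = 8.94e-05) and -0.82 for TRIB3 (3 of 3 lower, adjusted p = 0.000495). At this threshold 36.6% of all tested genes differed in either direction, and 20.3% were lower. Under TPM the adjusted p was 0.00507 for PSAT1, 0.462 for MTHFD2 and 0.472 for TRIB3.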

How the results depend on the processing

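PSAT1 was called at 24 h under every one of 22 alternatives, with log2 fold changes from -2.60 to -1.66 and adjusted p up to 0.000184. The count of members called at 24 h was 4 with TPM, 3 at an adjusted p under 0.01 and 4 under 0.05 without a minimum fold, where 28.9%, 41.5% and 55.3% of all genes were called in either direction. Between 2 h and 24 h it was 3 and 3 at these p alone, against 36.6% and 50.6% of all genes. TRIB3 kept an adjusted p of at most 0.00249 at 24 h, while leaving out 1 library gave SHMT2 from 0.000990 to 0.0712. The other sign was found in 15 of 240 alternative fold changes of members at 1 h, 20 of 240 at 2 h, 4 of 220 at 24 h (DDIT3, PPP1R15A and PHGDH) and 6 of 220 between 2 h and 24 h (DDIT3, PHGDH and SHMT2). Same-numbered libraries correlated over 0.1 in 8 of 9 pairs among 0, 1 and 2 h but in 2 of 9 pairs with 24 h (-0.08 to 0.24), and differently numbered ones in 2 of 36, so the numbers were not taken as pairs at 24 h. A library correlated best with its own number in 26 of 36 comparisons among 3 libraries each, where 12 would arise with no pairing. With the replicate block over all libraries 2 of 10 members were called at 24 h, PSAT1 and CHAC1 (adjusted p = 0.00966), and 3106 (18.6%) of all genes. At 2 h 4 genes had an adjusted p under 0.01, 6 with that block, and in fits chosen after seeing the data 1 with the libraries of 0, 1 and 2 h alone and 130 with both changes, which called 35 genes and no member. Under TPM 540 genes were called at 2 h (14 higher, 526 lower), against 3, and 28 at 1 h (9 higher, 19 lower), against 1. The 3 libraries of DDIT3 at 24 h spanned 6.37-fold, and its change was not resolved here. No read counts were used, and their effect on such spreads was not tested.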
